A study of Rattus norvegicus with 11 samples.

Results

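The cytosolic ribosomal proteins were described across the soleus muscle of 11 rats. Members were the rows of the count table whose symbol begins with Rpl or Rps and a digit, together with Rplp0, Rplp1, Rplp2 and Rpsa, leaving out the S6 kinases (Rps6k). The rule found 84 of 16810 rows, 51 named for the large subunit and 33 for the small one. Of these, 76 are core subunit genes and 8 are rows whose symbol marks a paralogue, pseudogene or partner: Rpl3l, Rpl22l1, Rpl36al, Rpl37a-ps1, Rpl39l, Rps19bp1, Rps4x and Rps4y2. Rps19bp1 encodes a protein that binds Rps19 and is not itself a ribosomal protein, but it meets the rule. Rps4x and Rps4y2 were both sorted by their symbols alone, so the core rows hold no row for Rps4.

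All 11 animals were male Sprague Dawley offspring, 12 months old and no 2 of them littermates, with poly(A) RNA of the soleus, a slow postural leg muscle, as the material. In the control group (n = 6) the mothers ate a diet given as 6% or 7% fat, depending on the place in the labels, with 10% sucrose. In the high-fat group (n = 5) the mothers' diet held 23.3% or 23.5% fat and 20% sucrose. The mothers' diets began 3 weeks before mating and lasted through pregnancy and lactation, and all offspring were weaned on day 21 onto standard chow. The groups therefore differed in the mother's diet, not in their own adult diet. Libraries held 10.2 to 15.4 M counts (M, mega). All 12 muscle markers looked for had rows and none was at 0 in all libraries, with a summed level of 139063 to 216086 counts per M counts (CPM, scaled between libraries by TMM, the trimmed mean of M values). Because the tissue was measured in bulk, fewer cells of a type and less RNA per cell cannot be told apart.

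A cytosolic ribosome is built from a large and a small subunit, each made of ribosomal RNA and of proteins that, with few exceptions, are present in equal number. In muscle, ribosome number sets the capacity for protein synthesis and is raised during growth. Messages for these proteins typically begin with a cytosine followed by an unbroken run of pyrimidines, the terminal oligopyrimidine tract, through which mTORC1 and the RNA-binding protein Larp1 control their translation. Mammalian genomes also carry many processed pseudogenes of these genes, copies made from spliced messages that closely resemble the parent sequence.

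The stretch around the start site is shown for 6 genes that the results turn on: Rplp0, the row with the most counts, Rpl31 and Rpl37a with long tracts, the unevenly counted Rpl12, and the pair of Rpl3 and its muscle paralogue Rpl3l. Each runs from 60 bases before the annotated start and ends 20 bases from it, as listed by RefSeq for build GRCr8, and capitals mark the run of pyrimidines that covers the start base.
Rplp0: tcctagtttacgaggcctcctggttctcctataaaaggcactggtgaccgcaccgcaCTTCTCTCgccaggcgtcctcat
Rpl31: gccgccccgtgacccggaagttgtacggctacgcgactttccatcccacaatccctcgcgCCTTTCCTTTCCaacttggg
Rpl37a: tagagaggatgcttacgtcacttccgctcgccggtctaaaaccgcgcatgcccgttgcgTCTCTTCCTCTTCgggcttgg
Rpl12: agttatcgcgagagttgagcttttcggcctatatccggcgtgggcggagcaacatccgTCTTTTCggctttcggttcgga
Rpl3: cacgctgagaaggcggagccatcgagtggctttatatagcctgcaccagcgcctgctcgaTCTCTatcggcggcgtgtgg
Rpl3l: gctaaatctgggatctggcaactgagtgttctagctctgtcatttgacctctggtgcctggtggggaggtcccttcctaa
Rplp0 lies at chr12:46718371-46718450 on the minus strand, Rpl31 at chr9:49143051-49143130 on the plus strand and Rpl37a at chr9:81748031-81748110 on the plus strand. Rpl12 lies at chr3:36661880-36661959 on the plus strand, Rpl3 at chr7:113507971-113508050 on the minus strand and Rpl3l at chr10:14258386-14258465 on the plus strand. Rplp0, Rpl31 and Rpl37a start with a cytosine inside the run, Rpl12 and Rpl3 start with a thymine, and Rpl3l starts with a guanine and has no run at its start.

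Among the RefSeq start site sequences used here, 66 of the 84 members were found by symbol, and the other 18 were not searched. A cytosine at the start followed by at least 4 pyrimidines was found in 24 of them, or 36.4%, against 2.63% of all 27457 genes listed. A looser search, for at least 8 pyrimidines in a row within 10 bases of the start, found 38 members, or 57.6%, against 7.25% of all genes. Over the full window, from 250 bases before to 50 after the start, CCGGAAG on either strand, the core recognised by ETS factors, was in 20 members (30.3%, against 9.22% of all genes). AAGATGG on either strand, a YY1-like word, was in 10 members (15.2%, against 7.30%), and TATAAA in 7 (10.6%, against 14.3%). The ETS core ends in the letters with which the YY1-like word begins, so a site can count for both, and all of these are matches of letters only. Annotated starts can be a few bases from the real ones, which moves a tract in or out of the strict search.

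Read counts of the members spanned a very wide range. Mean counts over the animals ran from 1.73 for Rpl35a to 13420 for Rplp0, the scaffold of the acidic stalk that recruits elongation factors, with a median of 558 over the 84 rows. In 35 rows the mean was 1000 or more, in 23 it was between 100 and 1000, in 21 between 10 and 100, and in 5 below 10. The 10 rows with the most counts held 49.6% of all member counts. No transcript lengths were used, so these are reads per row and are not ranked as message levels.

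**Figure D1:**
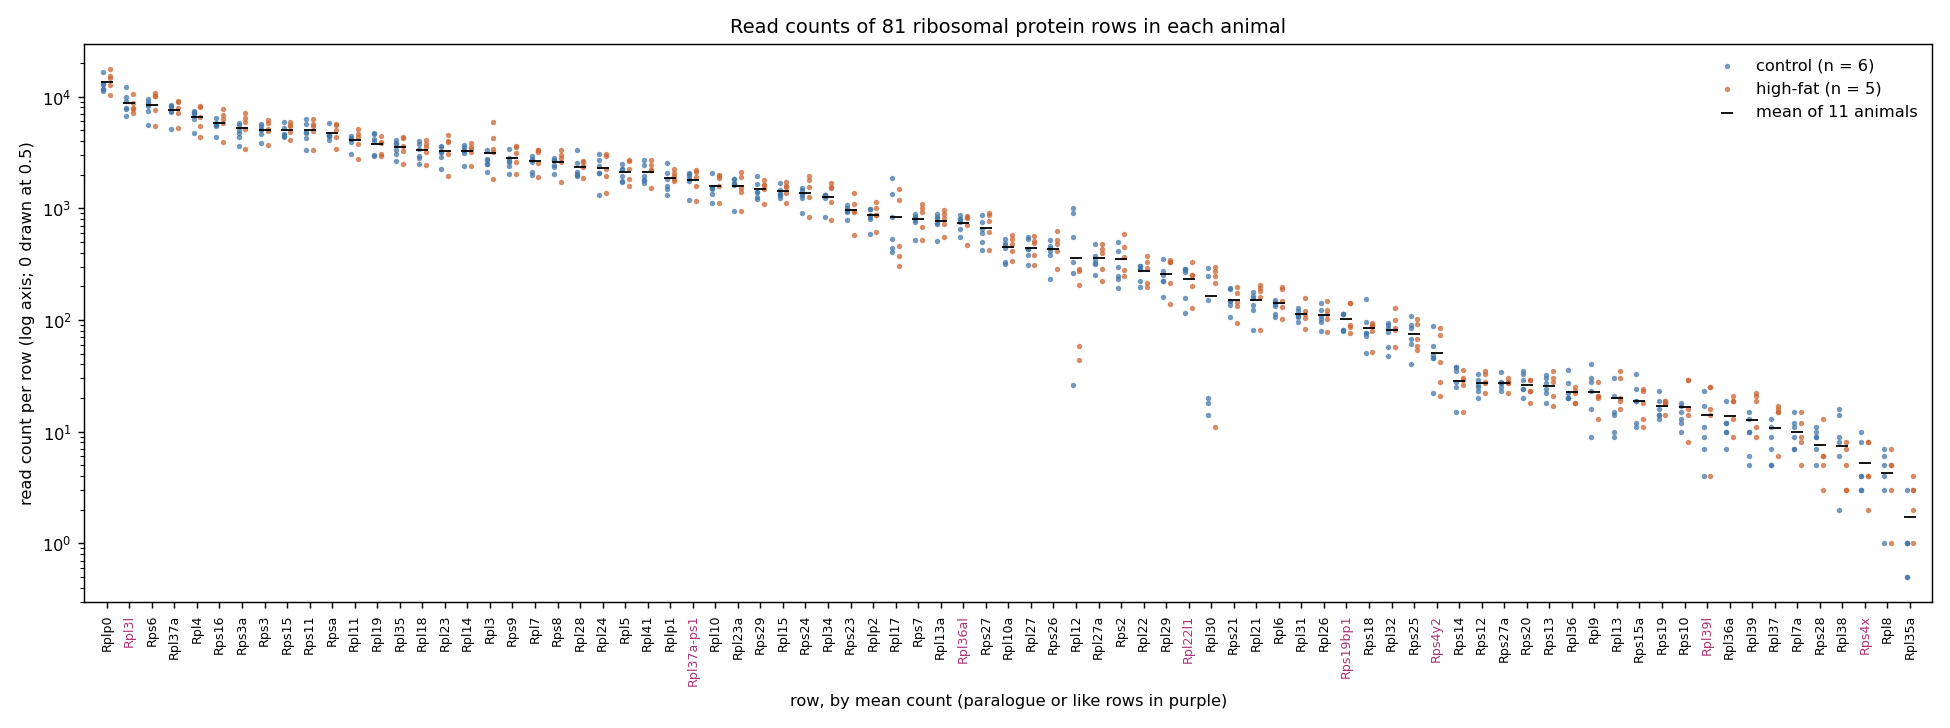
Read counts (vertical log axis) of 81 of the 84 rows (horizontal axis, ordered by mean count) in each of 6 control (blue) and 5 high-fat (orange) animals, with black bars for the mean of the 11 animals. Most rows hold a narrow column of points, while Rpl12, Rpl17 and Rpl30 are stretched over a much wider range than their neighbours.

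Several proteins that no ribosome lacks had almost no reads. Rpl35a had between 0 and 4 counts in a library, with 0 in control animals 3 and 4. A count of 0 allows up to 3 counts, counting error only. That is 0.195 to 0.295 counts per M counts without TMM scaling, depending on the library. Rpl8, a protein of the peptidyl transferase centre, had 1 to 7 counts, Rpl38 had 2 to 16 and Rps28 had 3 to 13. Rps4x, the X-linked form of Rps4, had 2 to 10. These 5 rows were too low to be tested for maternal diet, which left 79 members in the test.

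Next in order among the core rows, just above the filter, stood Rpl7a with a mean of 10.0 counts, Rpl37 with 10.8, Rpl39 with 12.8, Rpl36a with 13.7 and Rps10 with 16.5. Core rows with fewer than 100 counts on average together held only 0.376% of the members' counts. Of the 21 rows between 10 and 100 counts, paralogue rows included, 12 were named for the small subunit, as were 33 of all 84 members. One of the 12 is Rps19, mutated in Diamond-Blackfan anaemia, with a mean of 17.0 counts.

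Copies were counted in RefSeq as entries whose symbol is that of the core gene followed by -ps, for pseudogene, or by the letter l and a number, for a like gene. The 76 core genes had 1076 such entries, 855 of them pseudogenes, with 1 to 35 per gene. Core rows below 10 counts had a median of 9.5 copies, those between 10 and 100 a median of 16, those between 100 and 1000 a median of 15 and those at 1000 or more a median of 12. Rpl41, with 1 copy, had a mean of 2126 counts, while Rpsa, with 26 copies, had 4712 and Rps27a, with 29 copies, had 27.2. Over the 76 core rows Spearman's rho of copy number and mean count was -0.20, a description across genes, which are not replicates. The sources used here do not say how reads matching several places were counted, and the part this plays in the low rows was not tested.

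Rplp0 and Rpl37a were among the large subunit rows with the most reads. Rplp0 stood at 804 to 1215 CPM in the control animals, with a median of 1002, and at 1226, 1108, 1054, 979 and 1045 CPM in high-fat animals 1 to 5. Its groups overlapped, and the log2 fold change of high-fat over control was 0.07 ± 0.12 (SE). Rpl37a, a zinc-binding protein of the large subunit, stood at 470 to 770 CPM in control animals, with a median of 588, and at 760, 556, 601, 498 and 530 CPM in the 5 high-fat ones.

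The partners of Rplp0 in the stalk, Rplp1 and Rplp2, differed in how they varied. Rplp2 ran from 53.9 to 92.4 CPM in control animals, with a median of 64.2, and was 94.5, 64.8, 73.1, 55.7 and 60.4 CPM in high-fat animals 1 to 5. Rplp1 ran from 108 to 189 CPM in control animals, with a median of 132, and took the values 173, 194, 147, 144 and 116 CPM in those of high-fat mothers. Rplp2 was high in control animal 4 and high-fat animal 1, whereas Rplp1 was high in control animals 3 and 6 and high-fat animal 2.

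Rpl5 and Rpl11 form a particle with 5S RNA that joins the large subunit and, when free, binds the p53 regulator Mdm2. Rpl5 was the steadiest of the members, at 147 to 183 CPM in control animals and 187, 168, 154, 167 and 162 CPM in high-fat animals. Its coefficient of variation (CV, the SD over the mean of the 11 animals) was 6.98%. Rpl11 ran from 276 to 413 CPM in control animals and from 292 to 361 CPM in high-fat animals, with a CV of 12.9%.

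Among the small subunit rows with the most reads were Rps6, the main phosphorylation target of the S6 kinases, and Rps16. Rps6 ran from 512 to 770 CPM in control animals, with a median of 653, and was 837, 578, 631, 647 and 640 CPM in the 5 high-fat ones, so only high-fat animal 1 lay above the control range. Rpsa, a small subunit protein also known as the laminin receptor precursor, was among the steadiest, with a CV of 9.52%. Rpl31, at the rim of the exit tunnel, had a CV of 9.82%.

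In all, the members held 1.20 ± 0.118% of library counts in control animals (SD, n = 6; 1.07 to 1.38%) and 1.25 ± 0.113% in high-fat animals (SD, n = 5; 1.10 to 1.39%). In high-fat animals 1 to 5 the shares were 1.39, 1.10, 1.28, 1.17 and 1.30%. The difference of 0.049 percentage points was smaller than the spread within either group, and the groups overlapped. Counts of small over large subunit rows stood at 0.615 ± 0.0107 in control and 0.636 ± 0.0228 in high-fat animals (SD).

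After TMM scaling, the core rows with the most reads moved together from animal to animal. Among the 33 core rows with a mean of 1000 or more counts, the median level relative to each row's own mean was 0.33 higher on the log2 scale in control animal 4 and 0.30 higher in high-fat animal 1. In high-fat animal 1 all 33 rows lay above their own mean, and in control animal 4 it was 29 rows. The lowest medians were -0.22 in control animal 5 and -0.17 in control animal 3, where 1 and 4 rows lay above their mean. The highest and the lowest medians thus both came from control animals. Shares of library counts in all members, which use no TMM scaling, were also largest in high-fat animal 1 and control animal 4. The share was also smallest in control animal 5. Other animals changed place: high-fat animal 5 had a share of 1.30% but 7 rows above their mean. Control animal 6 had a share of 1.19% but 27 rows above.

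**Figure D2:**
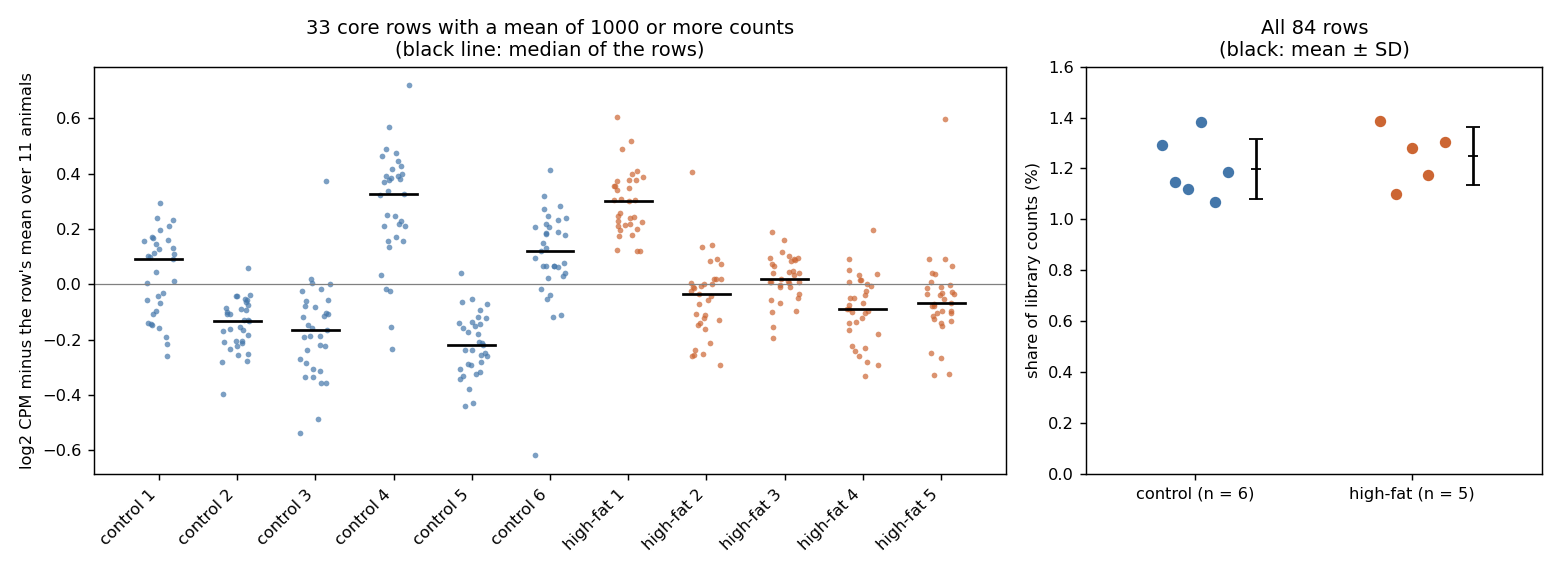
Left, log2 CPM of each of the 33 core rows with a mean of 1000 or more counts minus that row's mean over the 11 animals (points), with the median of the rows as a black line. Right, share of library counts in all 84 rows by group (points), with mean ± SD in black. Control animal 4 and high-fat animal 1 stand highest on the left, and the shares of the groups overlap on the right.

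Pearson's r of a member's log2 CPM with the mean of the other members had a median of 0.84 over these 33 rows (n = 11 animals), with 21 of them, or 63.6%, at 0.8 or more. Among 1682 other genes with a mean of 1000 or more counts the median r with the members' mean was 0.14, and 3.21% reached 0.8. All of these points share the same libraries and scaling, so r is a description. The members with the highest r were Rplp2 at 0.94, Rpl37a at 0.94 and Rpl24 at 0.94. At the other end stood Rpl30 at -0.56 and Rps2, near the entry of the message channel, at -0.21. Next came Rps4y2 at 0.00, Rps12 at 0.01 and Rplp1 at 0.02. Rps2 ran from 15.7 to 34.4 CPM in control animals and took the values 23.5, 26.6, 30.6, 28.9 and 35.2 CPM in those of high-fat mothers.

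Among 7685 genes outside the group with a mean of at least 100 counts, the 5 most like the members' mean over the 11 animals were LOC100188932 (r = 0.97), Selk (0.94), Mrpl30 (0.93), Bud31 (0.93) and Med31 (0.92). Mrpl30 is a protein of the mitochondrial ribosome. As a whole, the 71 tested rows named Mrpl or Mrps did not follow the same order of animals. Their median deviation on the log2 scale was 0.31 in control animal 4, but 0.02 in high-fat animal 1, where the cytosolic members stood at 0.31 over all 79 tested rows. In control animal 6 it was 0.25, against 0.08 for the cytosolic members, and in high-fat animal 5 it was -0.28 against -0.04. The difference between these 2 families was not tested.

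Markers of other cell types varied between the same libraries. Over 10 macrophage markers, the summed level was 349 to 1024 CPM in control animals and 291 to 1814 CPM in high-fat animals, with 622 in control animal 4 and 1085 in high-fat animal 1. For 5 Schwann cell markers the sum was 1513 CPM in control animal 5, the library with the lowest member share, and 41.9 to 177 CPM in the other libraries. No marker of either list was at 0 in all libraries. Their part in the members' levels was not tested.

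The spread of the members over the animals, with their common movement included, was larger at lower read counts. The median CV was 14.9% for the 35 members with 1000 or more counts, against 14.7% for all 1723 such genes. Between 100 and 1000 counts it was 19.2% for 23 members and 15.5% for all 6034 genes, and between 10 and 100 counts 31.7% for 21 members and 32.0% for all 3076 genes. Counting error alone gives a median CV of 20.9% in that last group, so the spread of a row such as Rps19 (CV 17.8%, counting error 24.3%) could not be resolved at this depth. Rps18 (41.1% against 10.9%), Rps4y2 (50.6% against 14.04%) and Rps25 (31.7% against 11.6%), in the same band, were spread well beyond it. A total of 55 of the 58 members with at least 100 counts had CVs from 6.98% to 27.6%.

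The other 3 of those 58, Rpl30, Rpl12 and Rpl17, stood apart. Rpl30, a large subunit protein without a bacterial counterpart, stood at 1.47, 19.0, 13.7, 1.31, 1.37 and 21.3 CPM in control animals 1 to 6 and at 0.915, 26.6, 17.7, 17.4 and 17.7 CPM in high-fat animals 1 to 5. The animals thus fell into a low set of 4 (control animals 1, 4 and 5 and high-fat animal 1, 11 to 20 counts each) and a high set of 7 (150 to 296 counts each), with 9.33-fold between the nearest members of the sets. Of 7757 genes with a mean of at least 100 counts, 6, Rpl30 included, had a gap between neighbouring animals that was as large. Both groups held animals of both sets, 3 of 6 in the low set in control and 1 of 5 in high-fat.

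Rpl12, which sits with Rplp0 at the base of the stalk, stood at 21.6, 25.0, 2.37, 93.7, 62.7 and 40.4 CPM in control animals 1 to 6 and at 23.0, 30.3, 3.68, 13.2 and 3.46 CPM in high-fat animals 1 to 5. The lowest 3, control animal 3 and high-fat animals 3 and 5, lay below 4 CPM, and the range over all animals was 39.5-fold. Its CV of 96.3% was reached or passed by 31 genes, itself included, or 0.400% of those with at least 100 counts.

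Rpl17, near the mouth of the exit tunnel, stood at 110, 142, 76.2, 50.0, 27.6 and 32.0 CPM in control animals and at 125, 32.4, 31.6, 75.04 and 27.3 CPM in the 5 high-fat ones. Its values were spread over a 5.22-fold range, with at most 1.54-fold between neighbouring animals. At least 6.29% of genes with a mean of at least 100 counts had a gap as large. The 55 members with CVs up to 27.6% reached at most 1.35-fold. The animals at the low end differed between the 3 genes: control animal 3 was lowest for Rpl12 but in the high set for Rpl30, and high-fat animal 1 was lowest for Rpl30 but the second highest for Rpl17.

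**Figure D3:**
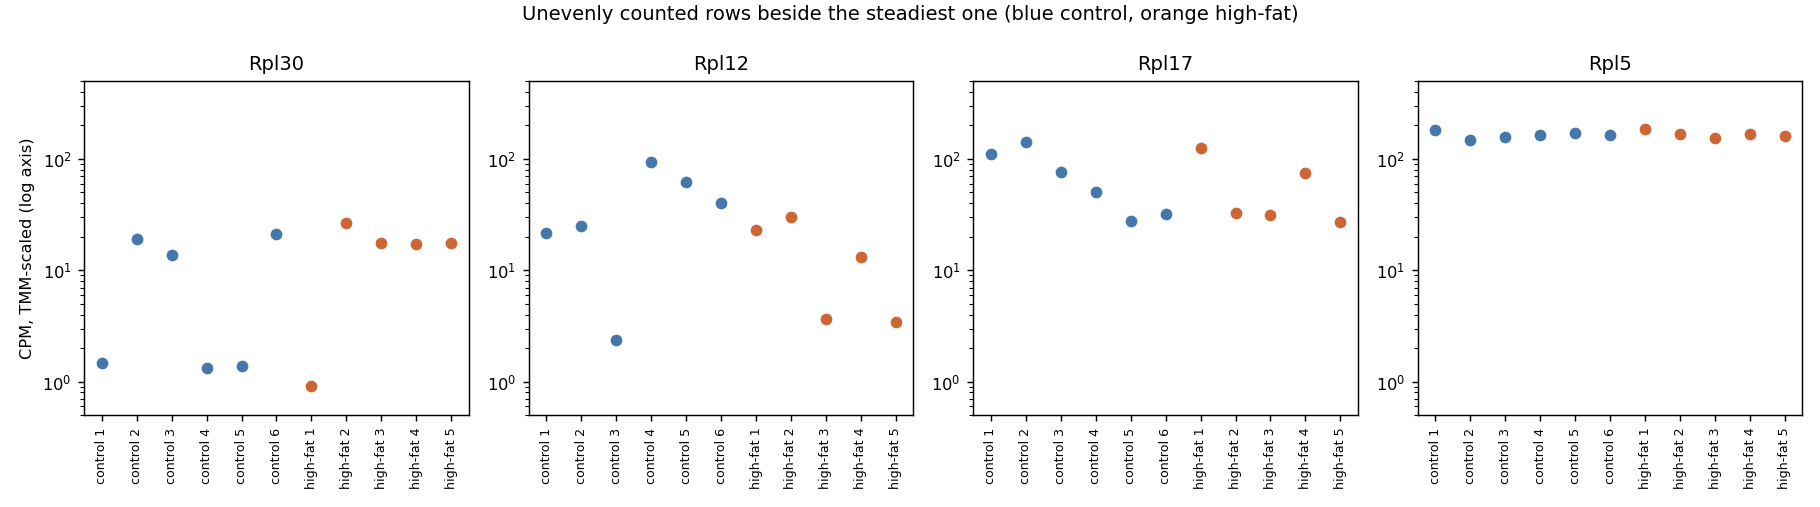
TMM-scaled CPM (vertical log axis, the same in each panel) of Rpl30, Rpl12 and Rpl17 and of Rpl5, the member with the smallest CV, in control (blue) and high-fat (orange) animals. Rpl30 splits into a low set of 4 animals and a high set of 7, Rpl12 spans 39.5-fold and Rpl5 is nearly flat.

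The comparison of maternal diets asked whether the members differed between offspring of high-fat and control mothers. With edgeR's quasi-likelihood test, 0 of the 79 tested members passed an adjusted p of 0.05, as did 0 of all 10814 genes (0%), the smallest adjusted p being 0.974 among members and 0.471 among all genes. Without adjustment 2 members, or 2.53%, had a p under 0.05, against 523 of all genes (4.84%). No member had groups that did not overlap in CPM, against 40 of all genes (0.37%). Other tools gave 7 calls (DESeq2), 8 (the likelihood ratio test of edgeR) and 0 (limma voom), and no member was among them. These counts of members are no higher than the background.

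The members' fold changes were small and went both ways. A total of 42 lay above 0 and 37 below, with a median log2 fold change of 0.01 against 0.00 over all genes tested, and 77.2% lay within 0.2 of 0 against 71.5% of all genes. The large subunit rows had a median of 0.01 (48 rows) and the small subunit rows 0.03 (31 rows). Over the 33 core rows with 1000 or more counts the median was 0.03 and the range -0.16 to 0.37, with a median SE of 0.13. Leaving out control animal 4 turned the split to 64 higher and 14 lower (median 0.10), and leaving out high-fat animal 1 turned it to 26 higher and 53 lower (median -0.05). Without both of these animals, a choice made after seeing the data, it was 40 to 38 with a median of 0.00. With all animals kept, the split was 56 higher and 23 lower under library size scaling. It was 34 higher and 45 lower with the letter of the animal names as a covariate. The split by direction thus depended on single libraries and also on the scaling and the model.

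**Figure D4:**
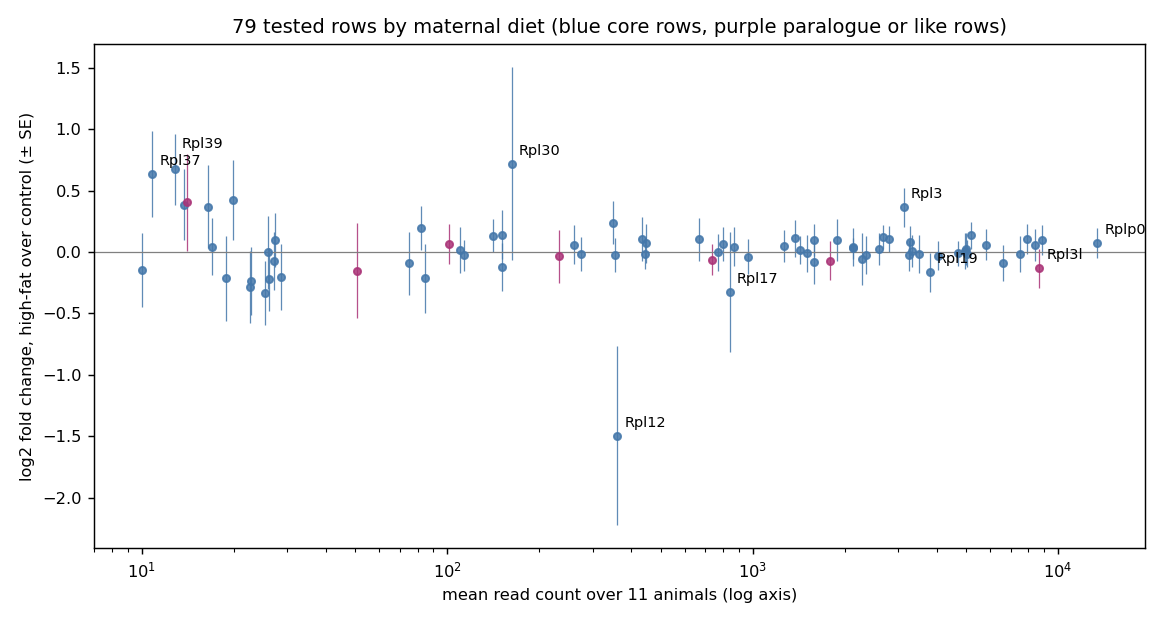
Log2 fold change of high-fat over control (vertical axis, bars are ± SE) against mean read count (horizontal log axis) for the 79 tested rows, core rows in blue and paralogue or like rows in purple. Rows with 1000 or more counts lie close to 0 apart from Rpl3, and the widest bars belong to Rpl12, Rpl30 and Rpl17.

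The 2 members with an unadjusted p under 0.05 were Rpl39 and Rpl3. Rpl39, a small protein that lines the exit tunnel, ran from 0.456 to 1.09 CPM in control animals, with a median of 0.788, and was 1.75, 0.959, 0.921, 1.40 and 1.13 CPM in the 5 high-fat ones. All 5 high-fat values lay above the control mean, but they rest on 5 to 22 counts per library. The log2 fold change was 0.68 ± 0.29 (SE; edgeR quasi-likelihood test, adjusted p = 0.974).

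Rpl3, a protein of the peptidyl transferase centre, ran from 153 to 269 CPM in control animals, with a median of 216, and took the values 280, 197, 267, 269 and 356 CPM in those of high-fat mothers. In 4 of 5 high-fat animals it lay above the control mean. The log2 fold change was 0.37 ± 0.16 (SE; edgeR quasi-likelihood test, adjusted p = 0.974). It stayed between 0.25 and 0.46 over 17 alternatives, with no adjusted p below 0.558. Rpl3 was highest in high-fat animals 5 and 1, whose macrophage marker sums were 1814 and 1085 CPM, and lowest in control animals 6 and 5 and high-fat animal 2, with sums of 454, 349 and 291 CPM. None of these 10 macrophage markers was at 0 in all libraries, and their part in the difference was not tested.

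Other members were named for having the smallest p in their direction. Rpl37 was higher in high-fat animals at 0.64 ± 0.35 (SE; edgeR quasi-likelihood test, unadjusted p = 0.0939). Rpl12 was lower at -1.50 ± 0.73 (same test, unadjusted p = 0.0606). Rpl19, a protein of the tunnel exit and of a bridge between the subunits, was at -0.16 ± 0.16. Its unadjusted p in the same test was not small, at 0.326. None passed the test. For Rpl12 the SE reflects the spread over animals given above. Rpl30 (0.72 ± 0.79) and Rpl17 (-0.33 ± 0.49) had SEs larger than their fold changes. Rpl19 ran from 224 to 438 CPM in control animals, with a median of 308, and was 321, 315, 258, 282 and 236 CPM in the 5 high-fat ones.

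Among the paralogues, Rpl3l had by far the most reads. It replaces Rpl3 in part of the ribosomes of heart and skeletal muscle and is scarce elsewhere. Rpl3l ran from 598 to 938 CPM in control animals, with a median of 626, and took the values 593, 819, 655, 672 and 518 CPM in those of high-fat mothers, a log2 fold change of -0.13 ± 0.16 (SE). Control animals 4 and 6 and high-fat animal 2 were the high ones.

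Rpl3l had more counts than Rpl3 in each of the 11 animals, by 1.46-fold in high-fat animal 5 to 5.82-fold in control animal 6. The log2 ratio averaged 1.75 ± 0.47 in control (SD, n = 6) and 1.26 ± 0.55 in high-fat animals (SD, n = 5). The difference of -0.49 lay between the SDs of the groups and did not pass the test (exact permutation test, two-sided, over 462 splits, p = 0.143; the smallest p this design allows is 0.00216), with 4 of 5 high-fat animals below the control mean. Without high-fat animal 2 the difference was -0.69 (exact permutation test, p = 0.0333), without high-fat animal 5 it was -0.31 (p = 0.314) and without control animal 6 it was -0.33 (p = 0.262). No lengths were used, so the ratio compares reads, and it is followed only between animals.

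The library at the low end of the ratio, high-fat animal 5, also had the lowest muscle marker sum, 139063 CPM, and the highest macrophage sum, 1814 CPM. Control animal 6, with the highest ratio, had 215792 CPM of muscle markers and 454 CPM of macrophage markers. The 8 fibroblast and matrix markers summed to 3643 CPM in high-fat animal 5 and 1054 CPM in control animal 6. The part of other cells in the ratio was not tested.

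**Figure D5:**
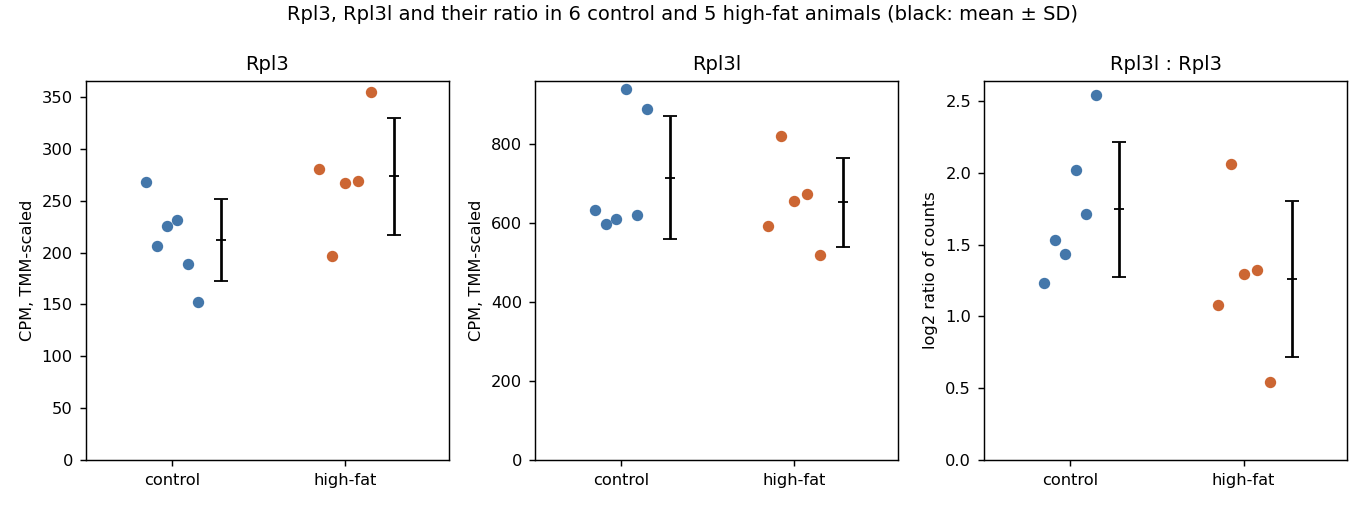
TMM-scaled CPM of Rpl3 and Rpl3l and the log2 ratio of their counts (vertical axes, each starting at 0) in 6 control and 5 high-fat animals (points), with mean ± SD in black. Rpl3 lies higher in 4 of 5 high-fat animals than the control mean, and the ratio overlaps between the groups.

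The other paralogue or partner rows followed the rows they were set beside to different degrees. Rpl37a-ps1, a row named as a pseudogene of Rpl37a, had 0.222 to 0.253 times the counts of Rpl37a in every animal, a range of only 1.14-fold. Rpl22l1 had 0.520 to 1.26 times the counts of Rpl22, the protein with which it shares its place in the ribosome. Rpl36al had 39.1 to 115 times the counts of Rpl36a, whose row held only 7 to 21 counts. Rpl39l, known mainly from testis, had 0.444 to 1.70 times the counts of Rpl39, both rows with 25 counts or fewer in every library. Rps4y2, whose RefSeq start site lies on chromosome 4, had 21 to 88 counts and 2.63 to 18.3 times those of Rps4x. Rps19bp1, a binding partner and not a paralogue, had 4.22 to 8 times the counts of Rps19, whose row held 13 to 23. The log2 fold changes by maternal diet were -0.07 ± 0.16 for Rpl37a-ps1, -0.03 ± 0.22 for Rpl22l1, -0.06 ± 0.13 for Rpl36al, 0.41 ± 0.39 for Rpl39l, -0.15 ± 0.39 for Rps4y2 and 0.07 ± 0.16 for Rps19bp1 (SE), none past the test. With 36-base reads, near-identical rows may share or lose reads, so these ratios are uncertain.

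Genes that work with the ribosome were read from 7 lists with 109 tested members, and 0 of them passed the adjusted threshold in either direction, as did 0% of all genes. An unadjusted p under 0.05 was found for 2 of them, against 4.84% of all genes. Eef1a1, which delivers aminoacyl-tRNA and whose message carries the same kind of tract, ran from 161 to 260 CPM in control animals and was 301, 212, 236, 306 and 325 CPM in the 5 high-fat ones. Its log2 fold change was 0.41 ± 0.15 (SE; edgeR quasi-likelihood test, adjusted p = 0.974). Eef1a1 was highest in high-fat animals 5, 4 and 1, with macrophage marker sums of 1814, 1097 and 1085 CPM and sums over 7 lymphocyte markers of 114, 66.8 and 52.9 CPM. Among control animals it was highest in 3 and 1, with macrophage sums of 847 and 1024 CPM, and the part of these cells was not tested. Nhp2, a protein of the box H/ACA particles that modify ribosomal RNA, had a log2 fold change of 0.32 ± 0.14 (SE; edgeR quasi-likelihood test, adjusted p = 0.974).

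List medians lay close to that of all genes. The elongation factors had a median log2 fold change of 0.08 (6 of 8 above 0), the 27 initiation factors 0.01 (15 above 0) and the 17 genes of mTORC1 and tract control -0.03 (7 above 0). Ribosome assembly stood at 0.02 (24 of 35 above 0), RNA polymerase I at 0.00 (7 of 13) and factors of the nascent chain at 0.07 (4 of 6). Of ribosomal proteins named otherwise, Gnb2l1, the scaffold protein now called Rack1, stood at 0.07 ± 0.10 and Fau at 0.08 ± 0.15 (SE).

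Members with and without a tract were described side by side. The 23 tested members with a cytosine and at least 4 pyrimidines at the start had a median log2 fold change of 0.03, and the 39 without had 0.01. By the looser search the order was reversed, at -0.002 for the 36 tested members with a tract and 0.036 for the 26 without. In the strict search the median r with the other members was 0.75 with a tract and 0.63 without. Among those with 1000 or more counts it was 0.78 (11 rows) and 0.84 (15 rows). The order of the groups thus depended on the search and on which rows were taken.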

How the data were processed

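Messenger RNA of the soleus of 11 rats was sequenced for 36 cycles from 2 µg of total RNA on an Illumina Genome Analyzer IIx, per the labels' protocols. The authors deposited raw read counts per gene symbol. The submitters' processing notes name FastQC, BWA, HTSeq and edgeR without versions. The sources used here give no build, annotation, strand setting or treatment of multiply matching reads. Reads from overlapping or antisense genes can therefore not be told apart.

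Each column was assigned through the name in its header, and numbers used here follow the order of the samples in the labels. Control animals 1 to 6 are C73, A110, C60, H10, A89 and A75, with the same numbers in the column headers. Of the high-fat animals, C91 is number 1 both here and in the headers, while H1, C25, H20 and A37, here 2 to 5, are headed 3 to 6. Each animal, from a litter of its own, was 1 replicate, and no pair of libraries had identical counts. Libraries were scaled by TMM (factors 0.897 to 1.12) and genes filtered by edgeR's filterByExpr with the group. Maternal diets were compared by the quasi-likelihood F test of edgeR, with p adjusted over all genes by Benjamini and Hochberg (threshold 0.05; common biological CV 0.234), with the SE taken as the log2 fold change over the square root of F. Log2 CPM used a prior count of 2. The Rpl3l ratio used an exact permutation test.

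The members and lists were chosen with earlier results of these data known. Named members were those below the filter, paralogue rows with their parents and the 5 with most and 5 with fewest counts. Those with the smallest p in each direction and those with extreme CVs were named as well. A few genes are not reported here by name; the test and all totals include them. A planned comparison per length was not made, since no transcript lengths were used. On simulated data for this comparison, of 10735 genes in the fit, edgeR recovered 24 of 65 genes changed 1.5-fold, 44 of 67 changed 2-fold and 60 of 64 changed 4-fold, with 10 unchanged genes called. Alternatives were other scalings and filters, DESeq2, edgeR's likelihood ratio test, limma voom, the name letter as a covariate and leaving out each animal. Tools were DESeq2 1.42.0, limma 3.58.1 and edgeR 4.0.16 under R 4.3.3, with pandas 2.3.3 and NumPy 2.4.6 under Python 3.11.15.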

Additional observations from a re-analysis of the deposited data

Results flagged for a closer look

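In 68 groups of 5 or 6 animals (the shares, the Rpl3l ratio and named members, each in control and high-fat animals), 4 had a highest animal far from the others of its group by Dixon's test; chance gives about 1 in 20. High-fat animal 1 was that animal in 3 of them. Rps6 stood at 837 CPM there, against 647 in the next animal, Rpl37a-ps1 at 184 CPM against 133 and Rpl22l1 at 27.4 CPM against 16.7. In the control group Rps4y2 stood at 8.26 CPM in control animal 4 against 4.20 in the next animal. These are the 2 libraries in which the members as a whole were highest. The 3 values of high-fat animal 1 come from the same library and are not independent of each other. Rps4y2 did not follow the other members, with an r of 0.00 with their mean and 1.75 CPM in high-fat animal 1.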

How the results depend on the processing

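The count of genes called was 0 with each scaling, filter, covariate and left-out animal, with limma voom and with the block described below, and 7 with DESeq2 and 8 with edgeR's likelihood ratio test; the count of members called was 0 throughout. The median log2 fold change of the members stayed within the spread between animals but changed sign with upper quartile scaling (-0.00), the name letter (-0.03) and 4 left-out animals (control 2, 3 and 5 and high-fat 1), with a range of -0.05 to 0.10 over left-out animals. The difference in share ran from 0.015 to 0.087 percentage points over left-out animals and stayed positive. The median CV of members with at least 10 counts was 19.2%, and 16.8 to 20.3% over left-out animals. It was 16.2% with library size scaling and 19.6% with RLE (relative log expression) scaling. The Rpl3l to Rpl3 difference ran from -0.69 to -0.31 over left-out animals, past the threshold only without high-fat animal 2 (-0.69, exact permutation test, p = 0.0333), where fewer animals entered; p was 0.0333 to 0.314 over all alternatives. None of 8 named members changed sign in fold change or passed the adjusted threshold in any alternative run for it. The sample labels hold no replicate numbers, but the column headers give 5 numbers to both groups. With these as a replicate block, an alternative added after seeing the data, 0 genes and 0 members were called, the members' median was -0.00 and Rpl3 was at 0.36. The correlation of same-numbered animals' deviations from their group means ran from -0.35 to 0.04, and no animal was closest to its own number. Other differences between the libraries enter these correlations, so they cannot tell whether same-numbered animals were handled together. Counting error is a large part of the spread of many rows under 100 counts, though not of Rps18, Rps4y2 or Rps25.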
